A study of Mus musculus with 61 samples.

Results

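The genes described here mark naive and quiescent T cells: Tcf7, Lef1, Satb1, Bach2, Klf2, S1pr1, Foxo1, Id3 and Dapl1. They were taken from the count files by their symbols, and all 9 were found among the 24421 genes listed. Levels are counts per 1e+06 reads (CPM) after trimmed-mean-of-M-values (TMM) scaling within each kind of material.

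RNA-seq counts were available for 61 libraries from C57BL/6 mice at 2 months of age, made to compare STAT5B with its variants Y665F, Y665H and N642H. STAT5B is a transcription factor activated by interleukin receptors. Y665F and Y665H change the same tyrosine of its SH2 domain, and N642H is an activating mutation known from T cell leukemia. There were 30 libraries of activated CD4+ T cells, 15 of isolated splenic T cells and 16 of spleens.

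For the CD4+ libraries, naive CD4+ cells (CD44 low, CD25-) were sorted from pooled lymph nodes and spleens, activated through the T cell receptor and CD28, and infected with 1 of 5 retroviruses. The viruses carried no insert (empty), STAT5B, N642H, Y665F or Y665H, and the GFP+ cells were sorted after 48 h with IL-2. They came from mice lacking Stat5a/b in T cells through Cd4-Cre (null cells) or from mice titled WT, with 3 libraries for each of the 10 groups. The genotype label reads Stat5a/b flox/flox for all 30. The vectors were added by infection, so their expression did not follow the Stat5b promoter. Splenic T cells came from WT mice (4 libraries) and from mice with the Y665H (4 deposited, 3 distinct) or Y665F (4) knock-in, all kept with IL-2 plus IL-7 over 24 h. A further group came from Y665F mice without interleukins (3), which the study calls unstimulated. The spleen libraries, titled splenocyte, came from WT (4), Y665H (5) and Y665F (7) mice. For its comparison of Y665F with Y665H splenocytes, the study describes T cells sequenced right after isolation. Its methods also name frozen spleen tissue as a source of RNA. The labels do not say whether the libraries of a group came from separate animals or cultures, so p-values measure the spread between these libraries, which may be technical.

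Naive T cells recirculate between blood and lymphoid organs in a resting state held by a small set of transcription factors. TCF1, encoded by Tcf7, and LEF1 are related HMG-box factors, SATB1 organises chromatin, and BACH2 represses effector genes. FOXO1 drives Klf2 and other homing genes, and KLF2 in turn activates S1pr1, the receptor through which T cells leave lymphoid organs. ID3 inhibits E proteins, and Dapl1 is a gene expressed in naive T cells whose function is little known. Several of these genes, such as Klf2 and S1pr1, decline when T cells are activated and divide, and STAT5 carries the signals of IL-2 and IL-7. Id3 was higher in the activated CD4+ cultures here than in splenic T cells, a level set across separate experiments.

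In GRCm38.p6 (RefSeq), Tcf7 lies at chr11:52246527-52283383, Lef1 at chr3:131110297-131224357, Satb1 at chr17:51736187-51833290 and Bach2 at chr4:32238413-32586109. Klf2 lies at chr8:72319062-72321654, S1pr1 at chr3:115710433-115715055, Foxo1 at chr3:52268337-52350109, Id3 at chr4:136143822-136145392 and Dapl1 at chr2:59484653-59505020. Bach2 overlaps the antisense gene Bach2os, and the strand setting of the counting was not stated, so reads of this pair cannot be told apart. Tcf7 overlaps Skp1 in RefSeq.

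Promoters from 250 bases before to 50 bases after a start were available for 8 members, in 16 windows. Both strands were searched for a STAT5-type site (TTCNNNGAA), a FOXO-type site (GTAAACA), a TCF/LEF-type site (CTTTGAA) and a KLF-type site (GGGTGTG). The stretches that hold the first and second of these are shown with the match in capitals, because FOXO1 is itself a member and STAT5 is the factor that the study varied.
Bach2: ggccttgtagTTCGTTGAAgagaaacact
Dapl1: actctgtcctGTAAACAtctacctggc
Tcf7: ctttataggaGTAAACAgacccccgcc
The Bach2 stretch is at chr4:32417285-32417313 on the plus strand and the Dapl1 stretch at chr2:59484479-59484505 on the plus strand. The Tcf7 stretch is at chr11:52282578-52282604 and reads along the minus strand. The STAT5-type site was in 1 of the 16 member windows, beside 8.30% of all 32851 promoters. The FOXO-type site was in 2 windows (3.65% of all), the KLF-type site in 3, of Id3, Satb1 and Tcf7 (7.95%), and the TCF/LEF-type site in 0 (5.14%). A match describes these letters only.

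The libraries held between 2017012 and 49850689 reads assigned to genes, with medians of 34590958 in CD4+ cells and 13695161 in splenic T cells. In null cells with the empty vector, Stat5b was at 2.91% ± 1.68 (SD, n = 3) of the WT empty level, and the vectors raised it to between 108% and 157% in null cells and 207% and 246% in WT cells. All 12 T cell markers had reads in each group. In the CD4+ cultures Cd4 lay between 633 and 1184 CPM, and the summed level of 8 B cell markers did not pass 6.38 CPM. Within null cells and within WT cells, libraries with the same replicate number deviated together, so fits with the number as a block are given beside the unpaired results where they change a call.

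Across the 10 CD4+ groups, the members fell into 2 patterns that were described after their values were seen. Tcf7, Lef1, Satb1, Bach2, Id3 and Foxo1 were highest in null cells with the empty vector, Y665H or, for Foxo1, STAT5B, and lowest in WT cells with Y665F. Over the 10 group means, Pearson's r between pairs of these 6 genes was 0.67 to 0.97. Klf2, S1pr1 and Dapl1 were highest in WT cells with the empty vector, with r of 0.69 to 0.90 among them. Between the 2 sets r ranged from -0.21 to 0.46. The CD4+ libraries were scaled together, and the values describe the pattern only. Foxo1 had the smallest range over group means, 0.42 on the log2(CPM + 1) scale, and Dapl1 the largest, 1.899.

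**Figure D1:**
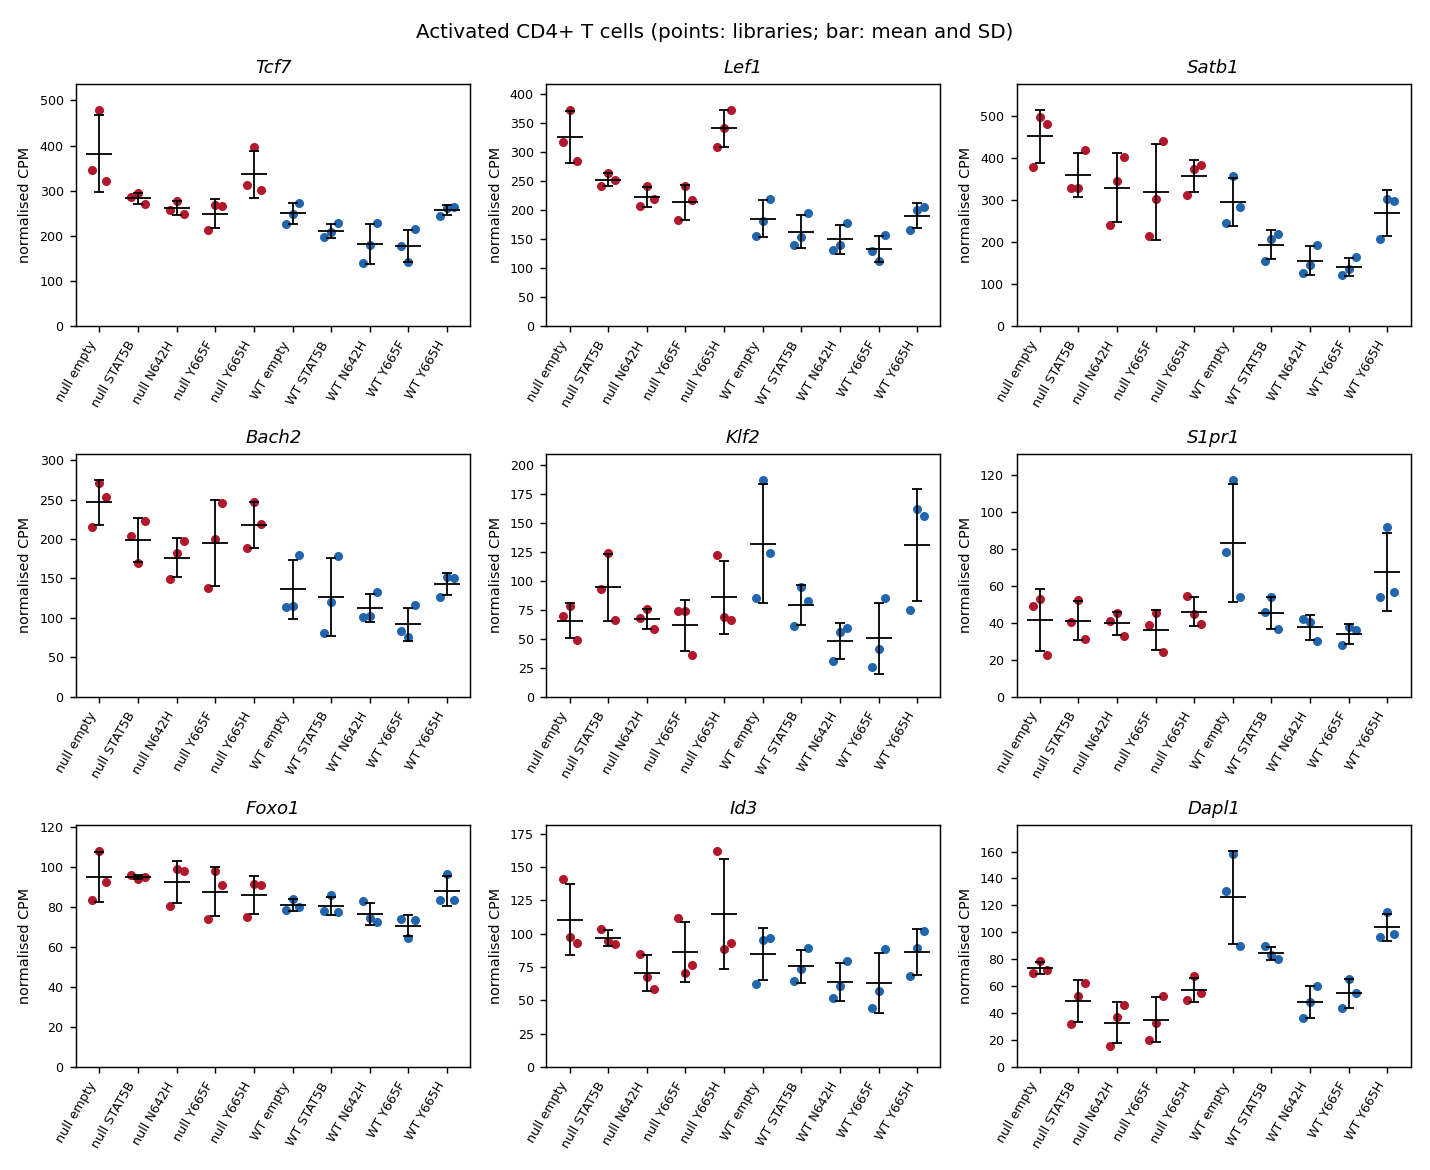
Normalised CPM of the 9 members in the 10 groups of activated CD4+ T cells, null in red and WT in blue. Points are libraries, and the bar with whiskers is the mean with its SD (n = 3). Tcf7 and Lef1 sit higher in null than in WT cells with the empty vector, whereas Klf2, S1pr1 and Dapl1 sit lower there.

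The first question was how the members differed between null and WT cells that both received the empty vector. Of the 9 members, 3 were higher and 1 lower in null cells by the quasi-likelihood test of edgeR, at an adjusted p below 0.05 over all genes, beside 6.83% of all 21975 genes higher and 7.06% lower. Lef1 read 317, 372 and 285 CPM in null cells and 156, 181 and 218 CPM in WT cells. The groups did not overlap, and Lef1 rose by 0.81 ± 0.15 (SE) on the log2 scale, adjusted p = 0.000551. Tcf7 read 345, 479.5 and 322 CPM in null and 227, 249 and 273 CPM in WT cells, a log2 fold change of 0.61 ± 0.16 with adjusted p = 0.0101. Both HMG-box factors were thus higher in each null library than in each WT library. Bach2, the repressor of effector genes, read 215, 271 and 253 CPM against 114, 115 and 179.6 CPM, with a log2 fold change of 0.85 ± 0.23 and adjusted p = 0.0113.

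S1pr1, the egress receptor, went the other way. It read 49.3, 53.2 and 22.4 CPM in null cells and 78.6, 117 and 53.8 CPM in WT cells, a log2 fold change of -0.999 ± 0.286 with adjusted p = 0.0183. Klf2 (-1.01 ± 0.37) and Dapl1 (-0.78 ± 0.30) had fold changes in the same direction that did not pass, with adjusted p of 0.0711 and 0.0824. For Satb1 the fold change was 0.61 ± 0.22, adjusted p = 0.0642. For Satb1, Klf2 and Dapl1 the null and WT libraries did not overlap either. The median log2 fold change of the 9 members was 0.38, beside -0.12 for all genes. Without WT empty library 2, S1pr1 and Bach2 no longer passed, at -0.67 and 0.75, and 2 members were left.

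In null cells, N642H lowered 4 members and Y665F 3 relative to the empty vector, and no member rose. For N642H, 5.97% of all 20113 genes were lower and 5.67% higher. For Y665F these shares were 4.42% and 5.16%. Tcf7 fell from 382 ± 85.0 CPM (SD, n = 3) to 258, 278 and 249 CPM with N642H, a log2 fold change of -0.59 ± 0.15 and adjusted p = 0.0150. With Y665F it read 213, 269 and 266 CPM, with -0.65 ± 0.15 and adjusted p = 0.0104. Lef1 read 206, 241 and 219 CPM with N642H and 182, 241 and 216 CPM with Y665F. Its log2 fold changes were -0.59 ± 0.13 (adjusted p = 0.00590) and -0.64 ± 0.13 (adjusted p = 0.00430). No library with either variant reached the lowest empty library, at 322 CPM for Tcf7 and 285 CPM for Lef1.

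Dapl1 showed the largest change in null cells. It read 69.6, 78.5 and 72.5 CPM with the empty vector, 16, 37.2 and 46.1 CPM with N642H and 20.2, 32.7 and 53.0 CPM with Y665F. The log2 fold changes were -1.20 ± 0.33 (adjusted p = 0.0224) and -1.09 ± 0.33 (adjusted p = 0.0415). The lowest library with each of the 2 variants was replicate 1. Id3, the inhibitor of E proteins, read 141, 97.4 and 92.9 CPM with the empty vector and 85.0, 67.6 and 58.5 CPM with N642H. Its log2 fold change was -0.68 ± 0.22 with an adjusted p of 0.04996, at the threshold, and with RLE size factors it did not pass (adjusted p = 0.0543). Dapl1 with Y665F did not pass with them either (adjusted p = 0.0515).

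With the replicate block, 6 members passed for N642H and 6 for Y665F, beside 10.6% and 8.98% of all genes lower in those fits. The additions were Satb1 and Bach2 for N642H, with log2 fold changes of -0.52 and -0.53 (adjusted p = 0.00378 and 0.00532). For Y665F they were Satb1, Bach2 and Id3, at -0.57, -0.39 and -0.39 (adjusted p = 0.00202, 0.0379 and 0.0129). Satb1 varied between replicates in a shared way: with Y665F it read 215, 303 and 442 CPM, and with N642H 241, 345 and 404 CPM. Klf2, S1pr1 and Foxo1 passed in neither fit. Their unpaired log2 fold changes ranged from -0.22 to 0.00. For N642H, 0 members passed without N642H library 1, 1 without empty library 2, and 2 without N642H library 2 or 3. For Y665F, 1 member (Lef1) passed without Y665F library 1 or empty library 2, and 5 without Y665F library 3.

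Unmutated STAT5B gave smaller differences. None of the 9 members passed in null cells, where 1.52% of all genes did, and 3 members passed with the block, beside 4.15% of all genes lower. These were Tcf7, Lef1 and Dapl1, with blocked log2 fold changes of -0.42, -0.37 and -0.67 and adjusted p of 0.0130, 0.0170 and 0.0339. Tcf7 read 285, 294 and 271 CPM and Lef1 241, 263 and 251 CPM, below each library with the empty vector. With Y665H, 0 members passed with or without the block, beside 0.0249% of all genes. Lef1 read 308, 340.2 and 372 CPM with Y665H, with a log2 fold change of 0.08 (95% interval -0.17 to 0.33), and Tcf7 312, 397 and 302 CPM, with -0.17 (-0.46 to 0.12).

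Directly against STAT5B, no member passed for N642H, Y665F or Y665H in null cells, beside 0.0845%, 0.0199% and 0.229% of all genes. All 9 members had negative values for N642H and for Y665F, from -0.63 to -0.05. With the block, Id3 was lower with N642H than with STAT5B (-0.51, adjusted p = 0.0270, beside 0.224% of all genes lower). Lef1 was higher with Y665H than with STAT5B (0.46, adjusted p = 0.00872, beside 1.35% of all genes higher). Y665F and N642H were not told apart for any member, in a comparison in which 0% of all genes passed and 181 genes had an unadjusted p below 0.05. The difference ranged from -0.12 to 0.30 over the members, and for Dapl1 the interval ran from -0.54 to 0.74.

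In WT cells, which keep their own STAT5, N642H and Y665F each lowered 3 members, Satb1, S1pr1 and Dapl1. All 9 members had negative fold changes for both vectors. The shares of all 20509 genes were 0.522% lower and 1% higher for N642H, and 0.512% lower and 0.746% higher for Y665F. Satb1, the chromatin organiser, read 246, 357 and 285 CPM with the empty vector, 127, 147 and 194 CPM with N642H and 123, 136 and 164 CPM with Y665F. The log2 fold changes were -0.91 ± 0.20 (adjusted p = 0.0284) and -1.05 ± 0.20 (adjusted p = 0.0159). S1pr1 read 42.4, 40.4 and 30 CPM with N642H and 28.1, 37.9 and 36.0 CPM with Y665F, below the lowest empty library at 53.8 CPM. Its log2 fold changes were -1.13 ± 0.25 (adjusted p = 0.0341) and -1.28 ± 0.25 (adjusted p = 0.0219).

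Dapl1 read 130.4, 158 and 89.8 CPM with the empty vector, 36.5, 48.4 and 59.9 CPM with N642H and 43.8, 65.4 and 55.0 CPM with Y665F. Its log2 fold changes were -1.36 ± 0.20 (adjusted p = 0.00281) and -1.19 ± 0.20 (adjusted p = 0.00879). Klf2, the factor that activates S1pr1, had the largest fold changes, -1.42 ± 0.41 and -1.36 ± 0.40, but did not pass (adjusted p = 0.113 and 0.120). It read 85.0, 187 and 124 CPM with the empty vector, 30.6, 55.5 and 58.9 CPM with N642H and 25.2, 41.4 and 84.7 CPM with Y665F. The 3 replicates differed widely, although the groups did not overlap.

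With the block, 6 members passed for N642H and 8 for Y665F, beside 3.57% and 5.3% of all genes lower. Klf2 then had -1.44 (adjusted p = 3.71e-05) and -1.43 (adjusted p = 4.72e-05). Tcf7 and Id3 were also lower with both vectors, Tcf7 at -0.45 and -0.49 (adjusted p = 0.0172 and 0.00853). Lef1 and Bach2 were lower with Y665F, at -0.47 and -0.55 (adjusted p = 0.00313 and 0.00789). Foxo1 was the member that passed in no fit, with unpaired log2 fold changes of -0.06 and -0.19. Without the block, 1 member passed for N642H when WT empty library 2 or N642H library 1 or 2 was left out. For Y665F, 0 passed without WT empty library 2 or Y665F library 1, 1 without Y665F library 2 and 6 without Y665F library 3.

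STAT5B and Y665H had no member that passed in WT cells without the block, beside 0.00975% and 0.00488% of all genes. With the block Satb1 (-0.61, adjusted p = 0.00562) and S1pr1 (-0.82, adjusted p = 0.00762) were lower with STAT5B, beside 0.302% of all genes lower. S1pr1 read 46.1, 54.0 and 36.7 CPM with STAT5B. With Y665H it read 54.1, 91.9 and 57.0 CPM, within the range of the empty libraries, and the 9 members ranged from -0.30 to 0.12.

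**Figure D2:**
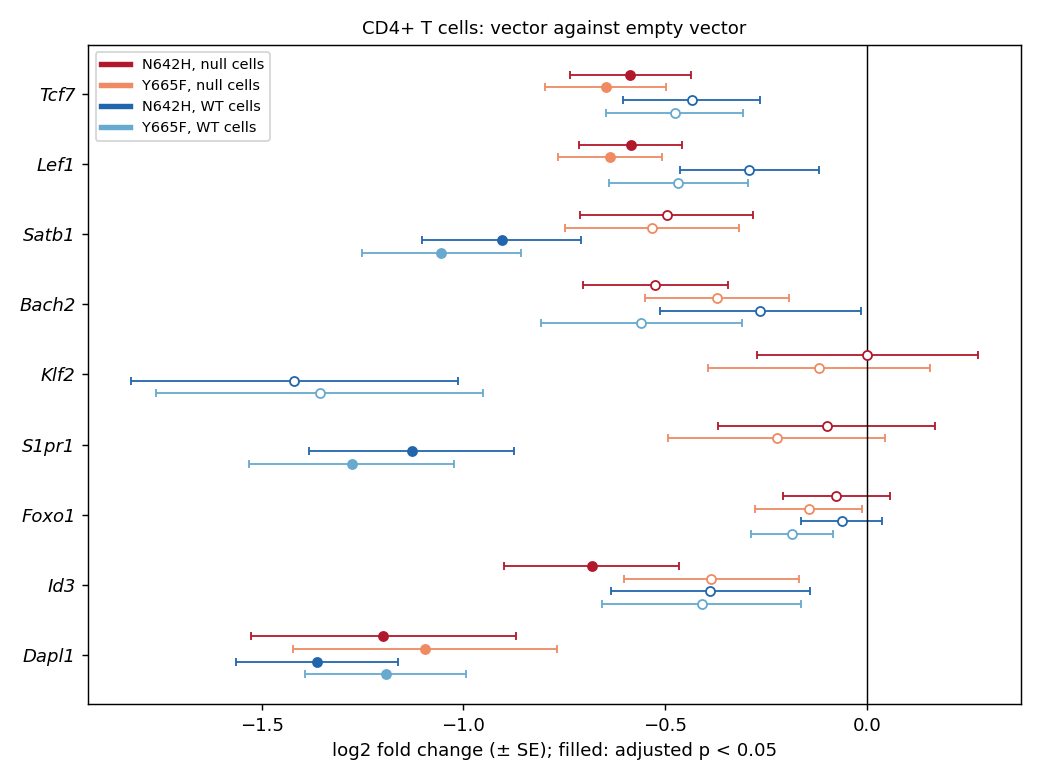
Log2 fold change against the empty vector (x axis, ± SE) for N642H and Y665F in null and WT CD4+ T cells, by member, from fits without the replicate block. Filled points passed at an adjusted p below 0.05. Klf2 and S1pr1 lie between -0.22 and 0.00 in null cells and between -1.42 and -1.13 in WT cells.

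Whether the vectors acted differently in the 2 genotypes was tested as an interaction. Without a block no member passed for STAT5B, N642H, Y665F or Y665H, beside 0.105%, 0.387%, 0.478% and 0.00455% of all genes. With the replicate number as a block within each genotype, a fit chosen after the data were seen, Klf2 and S1pr1 passed for N642H and for Y665F, beside 2.9% and 2.82% of all genes with a positive interaction. Klf2 changed by 1.52 (adjusted p = 0.000944) and 1.32 (adjusted p = 0.00434) more in the positive direction in null than in WT cells. For S1pr1 these values were 1.09 (adjusted p = 0.00358) and 1.06 (adjusted p = 0.00509). Klf2 also passed for STAT5B, at 1.21 (adjusted p = 0.0221), beside 0.878% of all genes. Tcf7 and Lef1 passed in the interaction of no vector, with values from -0.24 to 0.03 without the block.

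Other genes of the naive state were followed as 4 lists. Of 12 quiescence and anti-proliferative genes, N642H lowered 5 and Y665F 4 in null cells, with none higher. Pik3ip1, an inhibitor of PI3-kinase, had log2 fold changes of -1.59 ± 0.21 (adjusted p = 0.000116) and -1.62 ± 0.21 (adjusted p = 0.000121). Btg2, an anti-proliferative gene, had -1.13 ± 0.15 and -1.08 ± 0.15 (adjusted p = 9.00e-05 and 0.000167). Of 7 homing and survival receptors both vectors lowered Cd27, at -1.08 and -1.01, and Cd28. Of 10 other naive T cell genes, N642H lowered 3 and raised 1, and Y665F lowered 2 and raised 1. The gene that rose, Igfbp4, went from 31.6 to 116 and 115 CPM. Of 12 activation and effector genes 2 were higher with each vector, Il2ra, the IL-2 receptor alpha chain, at 2.95 and 2.82, and Myc, at 1.24 and 1.13. The list medians for N642H were -0.30, -0.30, -0.26 and 0.34, beside 0.01 for all genes.

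In WT cells, 312 of all genes passed for N642H and 258 for Y665F, beside 2340 and 1927 in null cells. No list was tested as a set for a difference between genotypes. Cd27 was lower with N642H (-0.85, adjusted p = 0.0427) and Y665F (-0.89, adjusted p = 0.0388). Igfbp4 had the opposite sign from null cells, at -1.56 and -1.71, and Rasgrp2, an exchange factor for RAP1, had -1.92 and -2.11. Both genes passed in the interaction without a block, beside 0.387% (N642H) and 0.478% (Y665F) of all genes. The interaction of Igfbp4 was 3.45 (adjusted p = 9.18e-05) for N642H and 3.60 (adjusted p = 6.39e-05) for Y665F. For Rasgrp2 it was 2.21 (adjusted p = 0.0297) and 2.21 (adjusted p = 0.0273). Activation genes passed singly, Myc at 0.88 with N642H and Id2 at -0.79 with Y665F. Of the quiescence list, 0 genes passed for N642H and 1 for Y665F, Txnip at -0.90. Between empty vectors, null cells had 5 quiescence genes higher, among them Btg2 at 1.58 and Btg1 at 0.79. They had 3 homing receptors higher and 3 lower, the latter led by Il7r at -1.93.

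The genes with the mean pattern most like that of the members over the 10 group means, of 8807 genes at 10 CPM or more, were Sema4f (r = 0.99), Bcl2l11 (0.99), Itpkb (0.98), Rin3 (0.98) and Rnf166 (0.98). Bcl2l11, which encodes the death factor BIM, ran from 149 CPM in null cells with the empty vector to 54.3 CPM in WT cells with Y665F. The mean pattern was closer to the first of the 2 sets of members. With it, r was 0.79 to 0.92 for Tcf7, Lef1, Satb1, Bach2, Id3 and Foxo1. It was 0.68 for Klf2, 0.51 for S1pr1 and 0.34 for Dapl1. All these r describe likeness over 10 means and were not tested.

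In the splenic T cells, library 4 of Y665H equalled the sum of libraries 1 and 2 of that group in each of the 24421 genes. Its 5327354 reads are the 3310342 and 2017012 reads of those libraries, so the group holds 3 distinct libraries and library 4 adds no sample. No other library was equal to another one or to a sum of 2 or 3 others. Fits of all 15 deposited libraries count the reads of libraries 1 and 2 again. Library 4 enters the shared estimate of the spread in all T cell comparisons, so the main T cell results are given with and without it.

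With all libraries, Klf2 and S1pr1 were lower in Y665F than in WT cells kept with IL-2 and IL-7, and no other member passed, beside 0.614% of all 22313 genes lower and 1.26% higher. Without library 4 of Y665H, 0 members passed, beside 1.44% of all genes in either direction. Y665F libraries 3 and 4 stood apart. Their 12 T cell markers summed to 1608 and 2479 CPM, beside 3364 and 3621 CPM in libraries 1 and 2 and 3465 to 4479 CPM in WT. Their 8 B cell markers summed to 713 and 199.8 CPM, beside 19.8 and 33.8 CPM, and the erythroid markers of library 3 to 1076 CPM. The 7 neutrophil markers summed to 69.0, 73.2, 295 and 72.4 CPM in Y665F libraries 1 to 4, beside 6.32 to 13.4 CPM in WT. The 2 CD4 lineage markers summed to 81.4 to 225 CPM in Y665F, 217 to 372 CPM in Y665H and 315 to 402 CPM in WT. The 2 CD8 lineage markers summed to 512 to 1198 CPM in Y665F and 817 to 1149 CPM in WT. The study cautions that T cell subset proportions differed between genotypes. It names relatively more central memory and fewer naive CD8+ cells in Y665F mice. Reads without a gene made up 67.6%, 72.8%, 84.0% and 79.6% of the Y665F libraries and 63.9% to 72.6% of the WT libraries. The part of these differences in the results was not tested. In bulk RNA, fewer T cells and less RNA per T cell cannot be told apart.

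Klf2 read 333, 309, 364 and 351 CPM in WT and 216, 245, 138 and 174 CPM in Y665F cells, with a log2 fold change of -0.81 ± 0.19 and adjusted p = 0.0270, and of -0.79 ± 0.21 and 0.0585 without Y665H library 4. S1pr1 read 1323, 1144, 1222 and 1442 CPM in WT and 862, 840.3, 282 and 435 CPM in Y665F cells, with -1.08 ± 0.27 and adjusted p = 0.0364, and -1.07 ± 0.28 and 0.0573 without it. Libraries 3 and 4 of Y665F were the lowest for both genes, yet libraries 1 and 2 also lay below each WT library. Without libraries 3 and 4 of Y665F, the values were -0.56 (adjusted p = 0.602) for Klf2 and -0.59 (adjusted p = 0.638) for S1pr1, and 0 members passed. The count was also 0 without any single one of Y665F libraries 3 and 4 and WT libraries 2, 3 and 4. Relative to the mean log2 level of the 12 T cell markers, the differences were -0.09 for Klf2 and -0.48 for S1pr1, and the groups overlapped.

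No member passed between Y665H and WT cells, beside 0.0762% of all genes, or 0% and 1073 genes with an unadjusted p below 0.05 without library 4. Dapl1 read 24.8, 34.5, 43.0 and 31.3 CPM in WT and 15.1, 12.6 and 16.7 CPM in Y665H libraries 1 to 3. The groups did not overlap, with a log2 fold change of -1.17 ± 0.40 and adjusted p = 0.403 (0.943 without library 4). For S1pr1 the difference was 0.02 with an interval from -0.50 to 0.54 with library 4, and 0.01 ± 0.30 (SE) without it.

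Between the knock-ins under interleukins, 1 member passed without library 4 of Y665H, Klf2, beside 0.789% of all genes lower. With it, Tcf7, Klf2 and S1pr1 were lower and Satb1 higher in Y665F than in Y665H, beside 2.18% of all genes lower and 4% higher. Klf2 had -0.88 ± 0.23 (adjusted p = 0.0314) without library 4 and -0.94 ± 0.19 (adjusted p = 0.00352) with it. For S1pr1 these values were -1.07 ± 0.30 (adjusted p = 0.0519) and -1.11 ± 0.27 (adjusted p = 0.0137). Tcf7 read 709, 432 and 487 CPM in Y665H libraries 1 to 3 and 365, 406, 131 and 302 CPM in Y665F cells, with -0.90 ± 0.27 and adjusted p = 0.0457 with library 4 but -0.81 ± 0.30 and 0.176 without it. Satb1 read 838, 1043 and 1061 CPM in Y665H and 1311, 1553, 1417 and 1659.7 CPM in Y665F cells, with 0.62 ± 0.17 and adjusted p = 0.0353 against 0.63 ± 0.22 and 0.144. All 4 Y665F libraries, 3 and 4 included, lay above each Y665H library for Satb1.

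With Y665F libraries 3 and 4 and Y665H library 4 all left out, 0 members passed in this comparison. Dapl1 had 1.22 ± 0.33 (adjusted p = 0.0836) there and 1.24 ± 0.29 (adjusted p = 0.0267) where Y665H library 4 was kept. Dapl1 read 40.2 and 30.2 CPM in libraries 1 and 2 and 6.10 and 10.2 CPM in libraries 3 and 4. With the 3 libraries left out, Klf2 had -0.67 (adjusted p = 0.246), S1pr1 -0.62 (adjusted p = 0.392) and Satb1 0.55 (adjusted p = 0.423). With library 4 of Y665H kept, 1 member passed without Y665F library 4 and 2 without Y665H library 1. The latter fit still held the reads of Y665H library 1, as part of library 4. Id3 was near the lower end of detection in these cells, at 0.229 to 7.33 CPM, from 3 to 178 reads, beside 44.0 to 162 CPM in the CD4+ cultures, a level set across separate scalings.

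Y665F T cells with interleukins had 2 members lower than those without, Klf2 and Dapl1, beside 0.91% of all genes lower and 2.94% higher. Both also passed without Y665H library 4, beside 0.718% of all genes lower. The study does not state whether the libraries without interleukins were cultured. Interleukins and the 24 h of culture therefore cannot be told apart in this comparison. Reads without a gene were 77.7% to 85.7% in the libraries without interleukins. Klf2 read 283, 317 and 424 CPM without interleukins, above each of the 4 libraries with them, with -0.82 ± 0.20 and adjusted p = 0.0191 (0.0429 without Y665H library 4). Dapl1 read 80.4, 34.3 and 83.3 CPM without interleukins. Its log2 fold change was -1.57 ± 0.41 (adjusted p = 0.0264, or 0.0313 without Y665H library 4), and the groups overlapped. Tcf7 had -0.99 ± 0.28 with adjusted p = 0.0503, and -0.98 ± 0.30 and 0.0727 without Y665H library 4. This comparison depended on the scaling, since 6 members passed with RLE size factors. The count was 0 without library 4 with interleukins or library 3 without them, 1 without library 1 of the latter, and 0 without libraries 3 and 4 together, where Klf2 had -0.57 and Dapl1 -0.91.

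**Figure D3:**
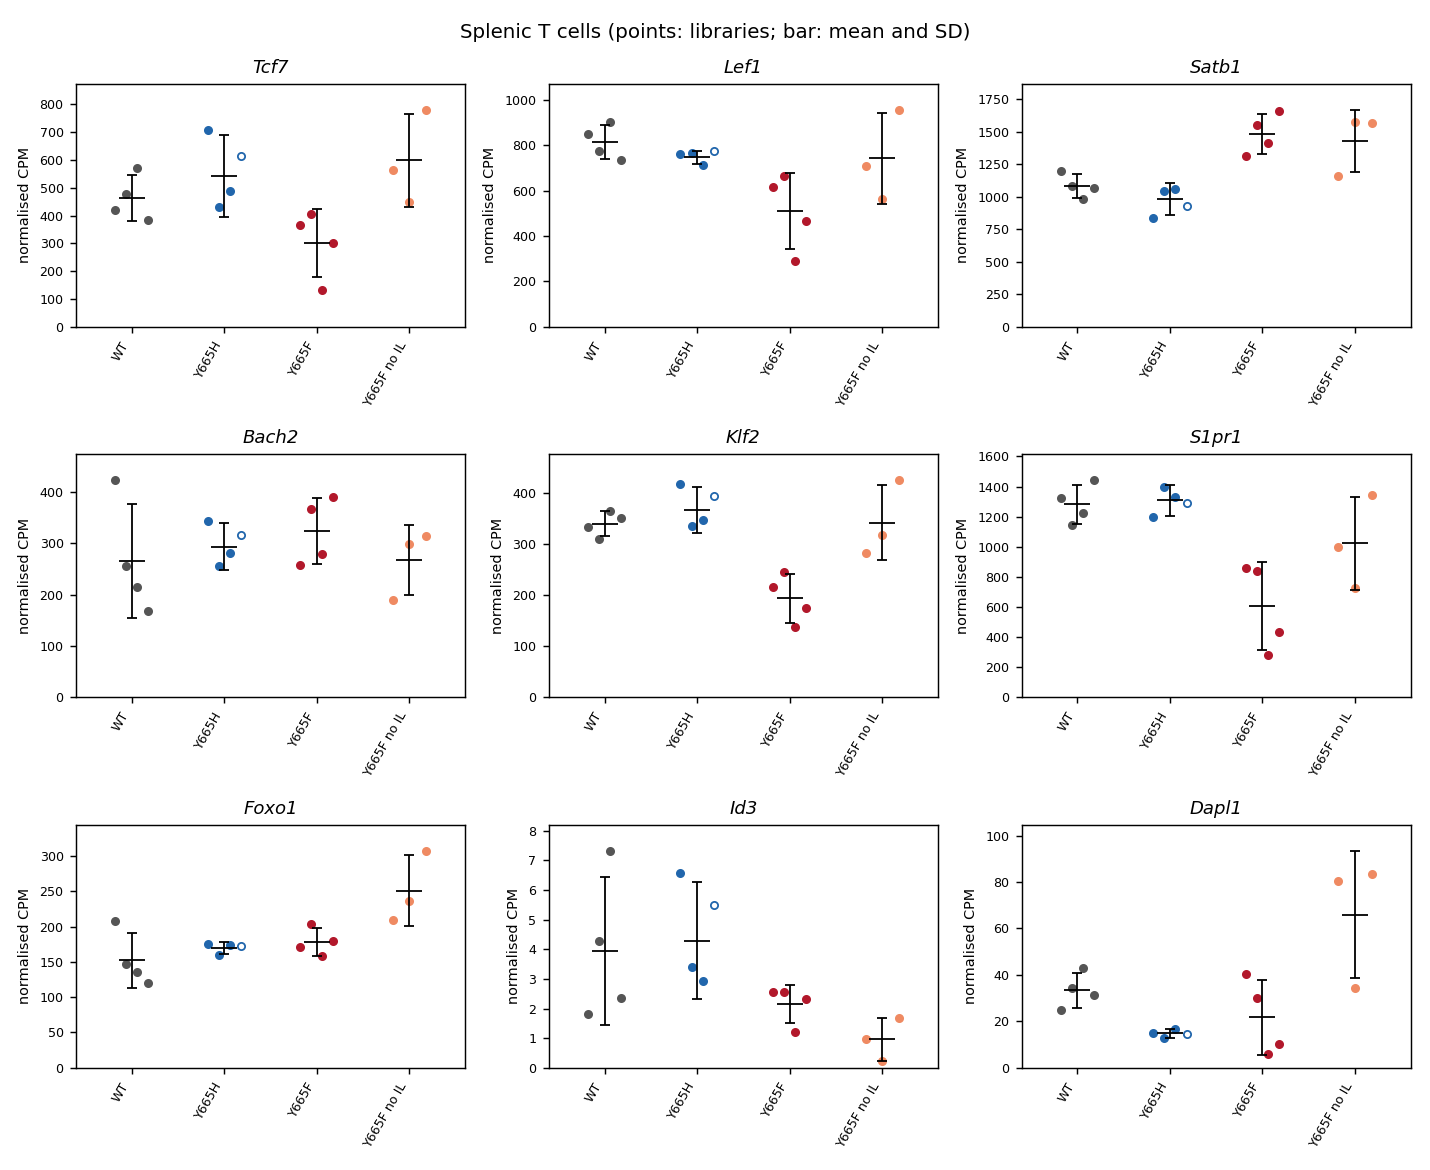
Normalised CPM of the 9 members in splenic T cells of 4 groups, kept with IL-2 and IL-7 unless marked no IL. Points are libraries and bars the mean with its SD over distinct libraries, and the open point is Y665H library 4, the sum of 2 others. Y665F cells with interleukins lie below WT and Y665H cells for Klf2 and S1pr1 and above them for Satb1.

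Of the pathway lists, 4 of 12 quiescence genes were lower and 0 higher in Y665F than in Y665H T cells with all libraries, in a comparison with 2.18% of all genes lower and 4% higher. They were led by Pik3ip1 at -1.09 ± 0.20 (adjusted p = 0.00164) and Btg2 at -1.04 ± 0.18 (adjusted p = 0.000973). Of the 7 receptors, Il7r (-1.95) and Cd28 (-1.53) were lower. Of the 10 other naive genes, 4 were lower, among them Actn1 at -1.64. Of 12 activation and effector genes 6 were higher and 0 lower, led by Gzmb, granzyme B, at 4.71 ± 0.48 (adjusted p = 7.43e-06) and Mki67, a marker of dividing cells, at 2.16. The list medians were -0.56, -0.75, -0.65 and 1.22, in the order named here, beside 0.13 for all genes. Without Y665H library 4, 3 quiescence genes, 2 receptors and 1 other naive gene were lower and 6 activation genes higher, and the genes that passed went from 1379 to 610. With Y665F libraries 3 and 4 left out too, 0, 1 and 0 were lower and 5 activation genes higher, and 204 of all genes passed.

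In spleens the order of the genotypes was different. Y665F spleens had 2 members higher than WT, Tcf7 and Dapl1, and none lower, beside 5.63% of all 19418 genes higher and 6.59% lower. Tcf7 read 109, 133, 119 and 129.7 CPM in WT and 149.6 to 206 CPM, median 192, in the 7 Y665F spleens, with 0.55 ± 0.13 and adjusted p = 0.0121. Dapl1 read 9.37, 9.69, 9.70 and 12.1 CPM in WT and 15.9 to 25.5 CPM, median 20.6, in Y665F spleens, with 1.00 ± 0.17 and adjusted p = 0.00137. For both genes the groups did not overlap. The files of the 4 WT spleens list 0 unaligned reads whereas those of the 12 mutant spleens list 95747 to 158811, so genotype and file processing cannot be told apart in comparisons with WT.

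Y665H spleens had 6 members lower than WT and none higher, beside 9.05% of all genes lower and 10.7% higher. These were Lef1, Satb1, Klf2, S1pr1, Foxo1 and Dapl1. Dapl1 read 2.28 to 5.39 CPM, median 3.19, in Y665H spleens, with -1.54 ± 0.18 and adjusted p = 0.000392. Klf2 read 80.5, 118, 82.4 and 103 CPM in WT and 51.6 to 75.3 CPM in Y665H spleens, with -0.65 ± 0.14 and adjusted p = 0.00372. Lef1 (-0.69), Satb1 (-0.53), S1pr1 (-0.51) and Foxo1 (-0.44) followed, with overlapping groups and adjusted p between 0.00281 and 0.0195.

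One Y665H spleen, library 1, stood apart from the other 4 and held the highest level of all 9 members in its group. Its erythroid markers summed to 760.4 CPM, beside 3571 to 5090 CPM in the other 4, and its T cell markers to 805 CPM, beside 539 to 598 CPM. In WT spleens the erythroid markers summed to 712 to 1574 CPM and the T cell markers to 771 to 925 CPM. Library 1 lay within both WT ranges, and the other 4 lay outside them. The neutrophil markers summed to 194 to 316 CPM in WT and 120 to 1535 CPM in Y665H spleens. The part of these differences in the results was not tested. Lef1 read 98.0 CPM in library 1 and 44.9 to 62.4 CPM in the other Y665H spleens. Without it, 8 members were lower in Y665H than in WT, with Tcf7 at -0.52 (adjusted p = 0.000642) and Bach2 at -0.52 (adjusted p = 0.00304) added.

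Between Y665F and Y665H spleens, which share the file format, 8 of 9 members were higher in Y665F, beside 10.5% of all genes higher and 15.3% lower. Only Id3 did not pass, at 0.18 ± 0.20. Dapl1 had the largest fold change, 2.54 ± 0.17 (adjusted p = 4.33e-08), with no overlap between the 7 and the 5 spleens. Lef1 read 119 to 170.0 CPM, median 147, in Y665F and 44.9 to 98.0 CPM, median 58.4, in Y665H spleens, with 1.19 ± 0.15 and adjusted p = 3.77e-05. Tcf7 had 0.94 ± 0.12 (adjusted p = 4.95e-05), Klf2 0.91 ± 0.12 (adjusted p = 6.58e-05) and Satb1 0.71 ± 0.11 (adjusted p = 0.000167). S1pr1, Foxo1 and Bach2 ranged from 0.48 to 0.61. All 8 also passed without Y665H library 1.

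**Figure D4:**
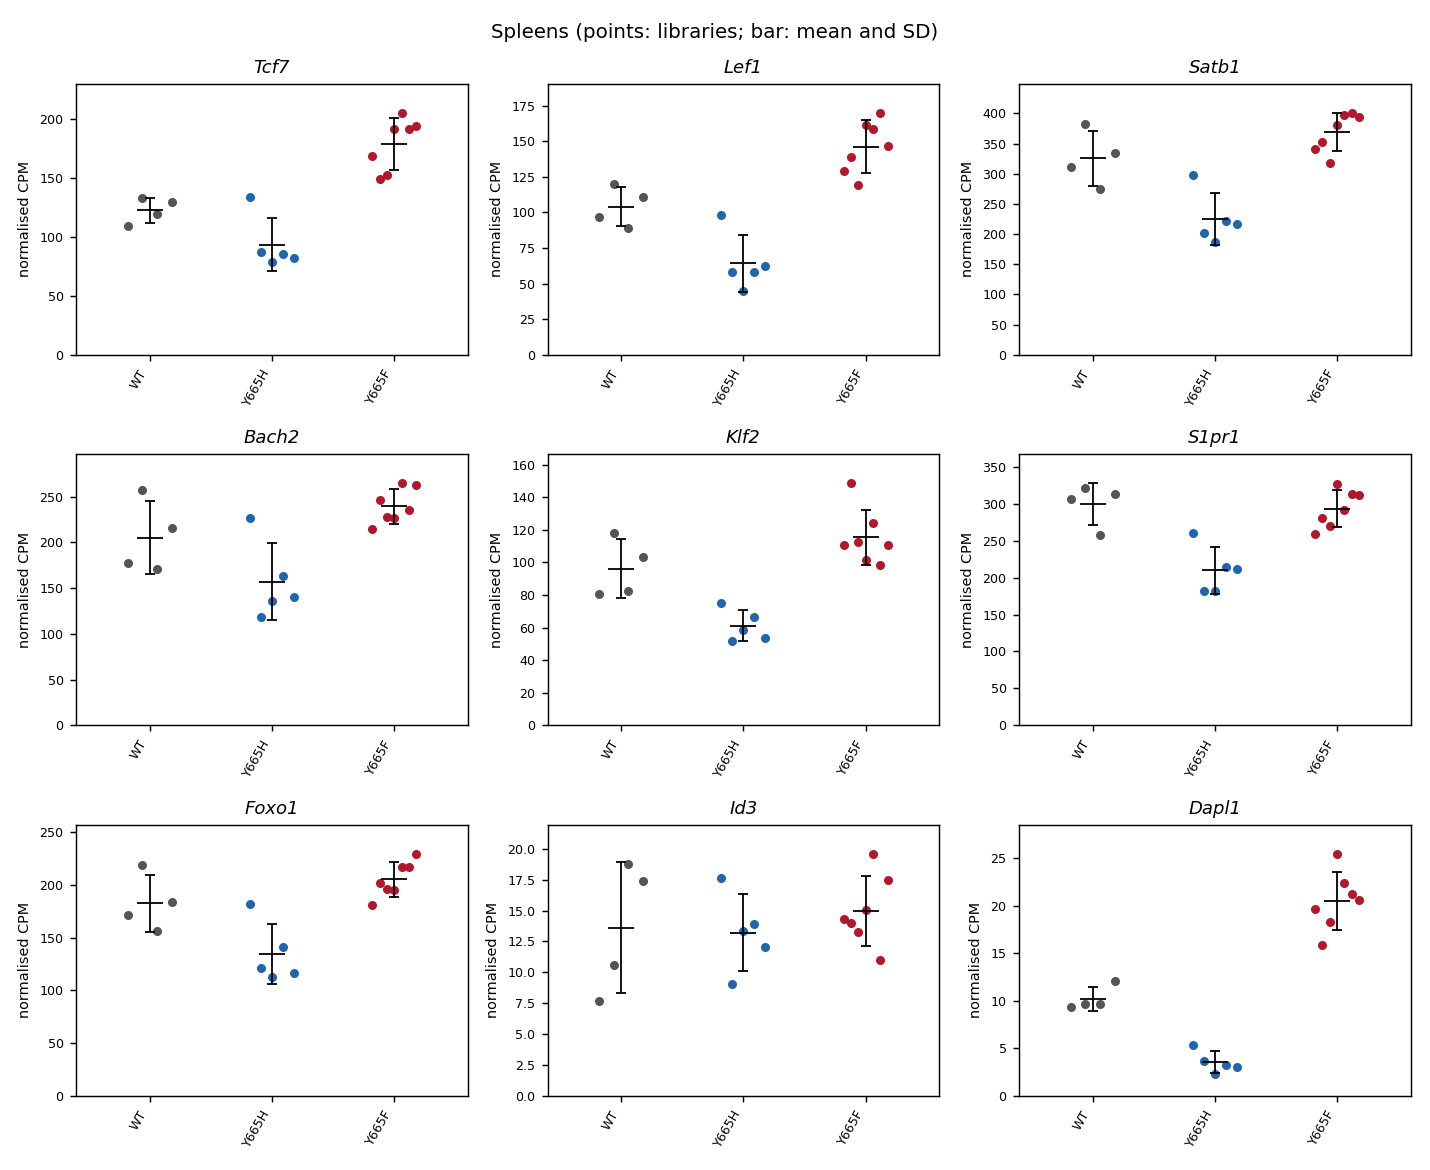
Normalised CPM of the 9 members in WT (4), Y665H (5) and Y665F (7) spleens. Points are libraries and bars the mean with its SD. The 7 Y665F spleens read 15.9 to 25.5 CPM for Dapl1, above each WT and Y665H spleen, and the highest Y665H point in each panel is library 1.

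By median sum, the T cell markers were highest in Y665F and lowest in Y665H spleens. The mean CPM of the members had this order except for S1pr1, at 299.7 CPM in WT and 293.2 CPM in Y665F spleens. Only Tcf7 and Dapl1 passed as higher in Y665F than in WT spleens, and the Id3 groups overlapped. The 12 T cell marker genes, all with reads in each group, summed to 771 to 925 CPM in WT, 539 to 805 CPM in Y665H and 1023 to 1424 CPM in Y665F spleens. In Y665F spleens the mean log2 level of the list was 1.02 above that of Y665H spleens and 0.58 above WT. The 8 B cell markers summed to 2222 to 3474 CPM over all spleens. The 2 CD8 lineage markers summed to 162 to 185 CPM in WT, 76.4 to 108 CPM in Y665H and 199 to 304 CPM in Y665F spleens. The part of these marker differences in the results was not tested.

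Measured against that list, 7 of the 9 members had lower values in Y665F spleens than in those of Y665H, the reverse of their levels per library. The list itself was 1.02 higher in Y665F spleens, so any gene that rose by less has a negative value on this scale. The median log2 fold change of all genes was -0.01, and the share of all genes below 0 on this scale was not counted. Spleens also hold other cells, and which cells the reads of a member came from was not tested. The ratio is therefore not a level per T cell. The difference was -0.07 for Tcf7, -0.12 for Klf2, -0.30 for Satb1, -0.38 for Bach2, -0.40 for Foxo1, -0.53 for S1pr1 and -0.84 for Id3. For S1pr1, Foxo1 and Id3 the groups did not overlap. Lef1 was 0.19 higher, with overlap. Dapl1 alone stayed apart in the original direction, at 1.25 higher in Y665F, and the groups did not overlap.

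Dapl1 also kept its direction against WT on this scale, at 0.35 in Y665F and -0.90 in Y665H spleens, without overlap in either case. Tcf7 did not, with -0.04 in Y665F spleens. S1pr1 was 0.61 below WT in Y665F spleens, with no overlap, although its level per library differed by -0.03. These relative values carry no test.

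**Figure D5:**
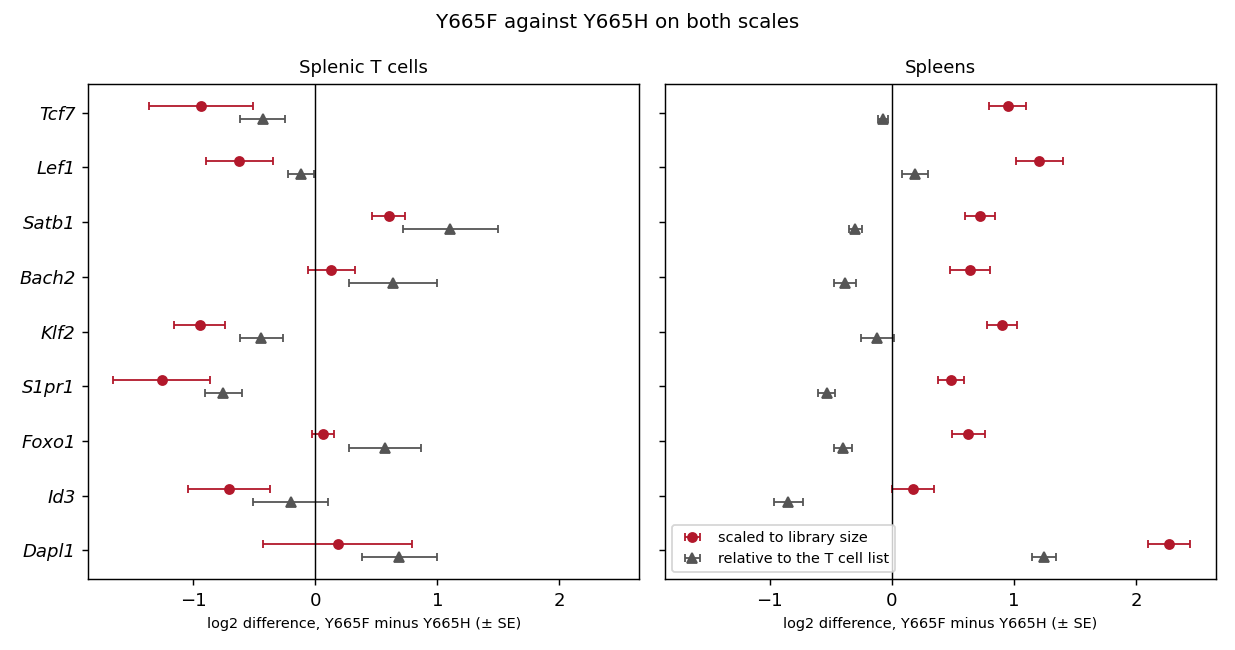
Log2 difference between Y665F and Y665H (x axis, Y665F minus Y665H, ± SE of the difference of group means) for each member in splenic T cells (4 and 3 distinct libraries) and in spleens (7 and 5). Circles are scaled to library size and triangles are relative to the mean of 12 T cell markers. In spleens all 9 circles lie above 0 and 7 triangles below it, and Dapl1 stays at 1.25.

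Of the lists in spleens, all 7 homing and survival receptors and 7 of 10 other naive T cell genes were higher in Y665F than in Y665H, with none lower. Il7r had 1.20 ± 0.11 (adjusted p = 7.48e-07) and Bcl11b, a T cell transcription factor, 1.18 ± 0.12 (adjusted p = 5.47e-06). The 12 quiescence genes split, with 5 higher and 3 lower. Of the activation and effector genes 6 were higher and 1 lower, with Gzmb at 2.47 and Mki67 at -1.64. The medians of these lists were 0.78, 0.30, 0.03 and 0.31, beside -0.01 for all genes.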

How the data were processed

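Each library was deposited as raw read counts per gene. The authors trimmed paired reads of rRNA-depleted total RNA with Trimmomatic 0.36, aligned them to mm10 with STAR and counted them with HTSeq 0.9.1. The submitters' processing notes also name FastQC 0.11.9, SAMtools 1.9 and Picard 2.9.2. The 5 closing lines of each file that name no gene were left out of totals, and they held 28.4% to 85.7% of the reads listed. Counts were fitted in 5 sets (null cells, WT cells, all CD4+ cells, splenic T cells, spleens) with edgeR 4.0.16 in R 4.3.3: genes with at least 10 reads in total, TMM scaling, glmQLFit and glmQLFTest, with Benjamini-Hochberg adjustment over all genes of a fit. A gene passed at an adjusted p below 0.05. Standard errors were derived from each log2 fold change and its F statistic, and 95% intervals from them under a normal distribution. The scripts were tested on simulated counts. Each pair of libraries in a group differed by more than sampling noise (chi-square per gene of 3.32 or more). Equality of a library with another, or with any of 1830 sums of 2 or 35990 sums of 3, was searched over all genes. It was found once, for splenic T cell Y665H library 4 (libraries 1 and 2), which was left out of means, SDs and overlaps. The T cell fits were made with it, as planned, and without it.

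The members and lists were chosen with earlier results of these data known. All 9 members are named, and from each list up to 3 genes that passed with the largest change and a mean of at least 1 CPM. The marker lists, for T cells, CD4 and CD8 lineage, B cells, NK cells, erythroid cells, neutrophils, macrophages, endothelium, pancreas and liver, were used as summed CPM. Besides the T cell, B cell and erythroid sums of the report, the CD8 list summed to 5.86 to 20.5 CPM in CD4+ cultures and NK markers to at most 0.659 CPM there. The CD4 list summed to 745 CPM or more there, the macrophage list to at most 8.63, the neutrophil list to at most 6.93, the erythroid list to at most 1.97 and the endothelial list to 65.3 to 177 CPM. In spleens the neutrophil list summed to 119.97 to 1535 CPM, the macrophage list to 798 to 1545 CPM, the pancreas list to at most 37.9 and the liver list to at most 139.6 CPM.

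Same-numbered libraries were paired by the data, since in each of 30 pairs of null and 30 pairs of WT groups the correlation of deviations from group means was over 0.1 (medians 0.467 and 0.635). Across genotypes 34 of 75 pairs were, so numbers were blocked within a genotype there. Alternatives were other size factors (RLE), library totals, no filter on low counts, DESeq2 1.42.0, the replicate block, a minimum log2 fold change of 1, leaving out each library, and, for spleens, levels relative to the T cell list on log2(CPM + 1). That scale in T cells, the fits without T cell Y665F libraries 3 and 4 or Y665H library 4, and the block within genotypes were added after the data were seen. Promoters and gene positions are RefSeq's (GRCm38.p6), matched by symbol. S1pr1 has no promoter entry.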

Additional observations from a re-analysis of the deposited data

Results flagged for a closer look

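In 3 of 45 group and member combinations, 1 library lay far from the others of its group, about as many as chance flags at 1 in 20. Tcf7 read 134 CPM in Y665H spleen library 1, Id3 read 1.22 CPM in Y665F T cell library 3 with interleukins, and Dapl1 read 12.1 CPM in WT spleen library 4.

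Between Y665F and Y665H, the fold changes of 3 members had opposite signs in splenic T cells and in spleens, and the groups overlapped in neither material. The log2 fold changes were -0.90 and 0.94 for Tcf7, -0.56 and 1.19 for Lef1 and -0.94 and 0.91 for Klf2. In T cells Lef1 did not pass (adjusted p = 0.134), and Tcf7 passed only with the summed Y665H library 4. Without that library and Y665F libraries 3 and 4, the T cell values were -0.49 for Tcf7, -0.22 for Lef1 and -0.67 for Klf2, and none passed. The difference between the materials was not tested, since they were scaled and fitted separately. T cell markers were higher in Y665F than in Y665H spleens and lower in 2 Y665F T cell libraries.

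The responses of Klf2 and S1pr1 differed between null and WT CD4+ cells in the fit with the replicate number as a block within each genotype. The interaction was 1.21 (STAT5B), 1.52 (N642H) and 1.32 (Y665F) for Klf2, and 1.09 (N642H) and 1.06 (Y665F) for S1pr1, and without the block none passed.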

How the results depend on the processing

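The counts of members that passed stayed within 1.5 times of the reported ones in 23 of 24 comparisons with RLE size factors and with library totals, in all 24 without the filter on low counts and in 19 with DESeq2. With RLE, with library totals and with DESeq2, 6 members passed with against without interleukins in Y665F T cells, where these scalings moved the median of all genes from -0.13 to -0.28, -0.31 and -0.27. DESeq2 gave 2 for STAT5B in null cells, 1 for Y665H against STAT5B, 7 for null against WT cells and 4 for Y665F against WT T cells. The cause was not tested.

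With the replicate block the counts were 3 (STAT5B) and 6 (Y665F) in null cells, 1 for N642H and 1 for Y665H against STAT5B, and 2, 6 and 8 for STAT5B, N642H and Y665F in WT cells. In a block shared by both genotypes, whose numbers did not pair across them, 1 member passed in the interaction for N642H and 1 for Y665F. Kept within genotypes it was 1, 2 and 2 for STAT5B, N642H and Y665F. In splenic T cells and spleens the numbers paired no libraries (6 of 21 and 4 of 13 pairs over 0.1), and the block gave 0 for Y665F against WT, 2 against Y665H, 0 for interleukins and 1 for Y665F against WT spleens. It moved the other counts by no more than 1.5 times. With a minimum log2 fold change of 1, 1 member was left for N642H and 1 for Y665F in null cells, 0 for null against WT cells, 1 in each of the 3 Y665F T cell comparisons, 1 for Y665F and 1 for Y665H against WT spleens, and 2 between the mutant spleens. In the 4 T cell comparisons, 0 members passed without the summed Y665H library 4 for Y665F against WT, 1 against Y665H, 2 with against without interleukins and 0 for Y665H against WT. Without Y665F libraries 3 and 4, the first 3 counts were 0, 1 and 0, and without all 3 libraries 0, 0 and 0. The other T cell fits named here kept Y665H library 4.

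Leaving out single libraries gave 0 to 4 members for N642H and 1 to 5 for Y665F in null cells, 1 to 2 and 0 to 6 in WT cells, and 2 to 5 between empty vectors. In T cells it gave 0 to 2 for Y665F against WT, 1 to 3 against Y665H and 0 to 3 for interleukins, and in spleens 2 to 3, 5 to 8 and 8. The other comparisons gave 0. Of 516 member fold changes refitted in this way, 0 changed sign. T cell fits without Y665H library 1 or 2 still held the reads of that library, as part of library 4.

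Relative to the T cell list, the sign reversed among members that had passed in Y665F against Y665H spleens for Tcf7 (-0.0728), Satb1 (-0.30), Bach2 (-0.38), Klf2 (-0.12), S1pr1 (-0.53) and Foxo1 (-0.40), and against WT for Tcf7 (-0.0424). This scale subtracts the difference of the list itself from every gene, 1.02 against Y665H and 0.58 against WT spleens. Over all 9 members, those with a positive difference went from 9 to 2 for Y665F against Y665H spleens, 8 to 1 for Y665F and 1 to 3 for Y665H against WT spleens, and 3 to 6 for Y665F against WT T cells. Standard errors of member fold changes reached 0.57, for Id3 in splenic T cells, where 3 to 178 reads per library limit it. Over all genes, counts of calls moved by over 1.5 times in 18 of 24 comparisons with DESeq2 and 20 of 24 with the block, and in 84 of the fits that left out 1 library against 105 that did not. Those gave 36 to 1472 genes for Y665F in WT cells (258 reported) and 94 to 982 for Y665F against WT T cells (418).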

Other observations

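The members differed between materials, in levels scaled by library total and set side by side across separate experiments, without a test. Group means of S1pr1 were 32.5 to 81.1 CPM in activated CD4+ cells and 586 to 1298 CPM in splenic T cells. Id3 lay the other way, at 61.4 to 120.7 CPM in CD4+ cells, 1.06 to 4.35 CPM in splenic T cells and 12.9 to 15.1 CPM in spleens. Dapl1 means were 33.3 to 123.7 CPM in CD4+ cells, 14.7 to 75.3 CPM in splenic T cells and 3.44 to 20.7 CPM in spleens.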
